A study of Amorphotheca resinae with 20 samples.

Results

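Formic acid was set against the untreated control of the weak acid experiment in mycelia of Amorphotheca resinae ZN1, a wild-type strain of the filamentous fungus used for the biological removal of inhibitors from pretreated plant biomass. The comparison took 4 of the 20 libraries of the series, chosen by their treatment labels: 2 with formic acid at 4.0 g/L and 2 labelled as the control for weak acids. Per the labels' protocols, the fungus was inoculated as spores in potato-dextrose medium with or without the acid, and all mycelia were collected at 4 h. The same experiment held 2 libraries with acetic acid at 2.0 g/L, and the other 14 libraries belong to the furan and phenolic aldehyde experiments, each with a control of its own. Furfural and HMF were given at 1 g/L, and vanillin, 4-hydroxybenzaldehyde and syringaldehyde at 0.1 g/L. Nothing in the labels states that the duplicates were grown as independent cultures, and each p-value below therefore reflects the scatter of the libraries at hand, which may be technical.

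Formic acid is a small weak acid released, like acetic acid, when plant biomass is pretreated. In its uncharged form it can cross the plasma membrane and give up its proton in the cytosol, and formate is a known inhibitor of cytochrome c oxidase, the terminal enzyme of the respiratory chain. Many fungi oxidise formate to CO2 with formate dehydrogenase. None of these functions can be placed on a gene here: the count tables do not pair their 18830 ARZ identifiers with names or products, and 0 of them matched the 9642 genes of the RefSeq table for assembly Amore1, which comes from another A. resinae strain. Genes are therefore given by identifier, and few are named.

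The formic acid libraries held 20189482 and 18426561 counts (replicates 1 and 2) and the control libraries 18275236 and 19657606. Over the 11223 genes with a mean of at least 10 CPM (reads of a gene relative to the TMM-scaled library total), the log2 difference between the libraries of a group had an SD of 0.204 for formic acid, 0.274 for the control and 0.257 for acetic acid. The control libraries thus lay further apart than the formic acid libraries. The 10 identifiers with the most reads took 4.76% and 4.93% of the counts with formic acid, against 3.63% and 3.21% in the controls. Transcript lengths were not used, so CPM values are compared between libraries for 1 gene and not between genes, and a level band mixes abundance with transcript length. How reads were shared among near-identical genes is not given in the sources used here, which leaves the level of any gene with a close copy uncertain.

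Which genes responded to the acid was the first question. Formic acid changed many genes by modest amounts and few by large ones. Of 16714 genes tested, 6641 (39.7%) passed edgeR's quasi-likelihood test at a Benjamini-Hochberg adjusted p under 0.05, 3500 (20.9%) of them higher and 3141 (18.8%) lower. The median fold change of the called genes was 1.67 for those that rose and 1.69 for those that fell. A change under 1.5-fold was seen in 1939 called genes (29.2%) and one of 1.5-fold to 2-fold in 2901 (43.7%). A change of at least 2-fold was called for 855 genes that rose (5.12%) and 946 that fell (5.66%). Changes of 4-fold or more were rarer, with 160 genes between 4-fold and 8-fold, 24 between 8-fold and 16-fold and 14 at 16-fold or more, 7 in each direction. When the size of the change was itself tested with edgeR's glmTreat, 225 genes (1.35%) changed by more than 2-fold, 134 (0.802%) higher and 91 (0.544%) lower.

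These counts rest on both formic acid libraries. The 6641 calls became 3985 without formic acid replicate 1 and 4037 without replicate 2, of which 3891 and 3948 were also called with all libraries. The 225 genes beyond 2-fold became 138 and 122 without these libraries, 149 without control replicate 1, and 136 by DESeq2 (87 higher and 49 lower). The balance of directions depended on scaling: 52.7% of the calls were higher with TMM factors and 42.7% with library totals alone (2907 higher and 3899 lower), a setting that shifted the median log2 fold change of all genes by −0.09. For the genes beyond 2-fold the numbers were 111 higher and 125 lower with library totals alone. When only genes with at least 10 CPM in 2 libraries were kept, 50.5% of the calls were higher.

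The largest rises belonged to 4 identifiers that form 2 pairs of consecutive numbers, ARZ_6462_T1 with ARZ_6463_T1 and ARZ_11002_T1 with ARZ_11003_T1. One member of each pair had the largest fold rise among eligible genes, and the other had the largest gain in CPM. ARZ_6462_T1 stood at 1.59 and 1.96 CPM in the controls and at 364 and 446 CPM with formic acid. ARZ_11003_T1 stood at 2.33 and 3.31 CPM in the controls and at 145 and 162 CPM with formic acid. Both formic acid libraries lay far above both controls for each gene; groups that did not overlap were common in this comparison (71.5% of the genes tested). Their log2 fold changes were 7.83 ± 0.21 (SE) and 5.76 ± 0.19, or 227-fold and 54.3-fold (adjusted p = 5.53e-14 and 1.40e-12, edgeR's quasi-likelihood test).

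ARZ_6463_T1 had 1848 and 2456 CPM in the controls and 13172 and 13630 CPM with formic acid. It took more reads than any other identifier in both formic acid libraries, 1.28% and 1.30% of all counts. ARZ_11002_T1 had 559 and 841 CPM in the controls and 5993 and 6866 CPM with formic acid. Together these identifiers held 0.249% and 0.334% of the control counts and 1.86% and 1.96% of the formic acid counts. Their log2 fold changes were 2.64 ± 0.21 and 3.20 ± 0.22 (edgeR quasi-likelihood adjusted p = 1.31e-07 and 2.39e-08), so the rise was smaller in fold but larger in reads than for their numerical neighbours. All 4 genes also passed the test for a change beyond 2-fold, with glmTreat adjusted p-values of 1.05e-13 to 1.04e-05.

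The nearest identifiers with values on either side did not share these rises. ARZ_6461_T1 had a log2 fold change of 0.20 (edgeR quasi-likelihood adjusted p = 0.311) and ARZ_6464_T1 one of −0.40 (0.0427). ARZ_11004_T1 had −0.74 (0.123), and ARZ_11000_T1, 2 numbers below ARZ_11002_T1, had −0.36 (0.0558). The number between ARZ_11000_T1 and ARZ_11002_T1 is not among the values given here. These neighbours were looked at after the leading genes were seen. Whether the 2 pairs are copies of one another was not tested, and the count tables do not say whether identifier numbers follow the genome. The ratio of ARZ_6462_T1 to ARZ_11003_T1 was 0.682 and 0.591 in the controls, 2.50 and 2.75 with formic acid and 3.35 and 3.0 with acetic acid. The ratio of ARZ_6463_T1 to ARZ_11002_T1 was 3.31 and 2.92, 2.20 and 1.99, and 2.61 and 2.41 in the same order. Neither of these ratios was therefore fixed across the libraries. In the controls the ratio of ARZ_6462_T1 to ARZ_11003_T1 rests on few reads, 30 to 44 and 39 to 66.

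**Figure D1:**
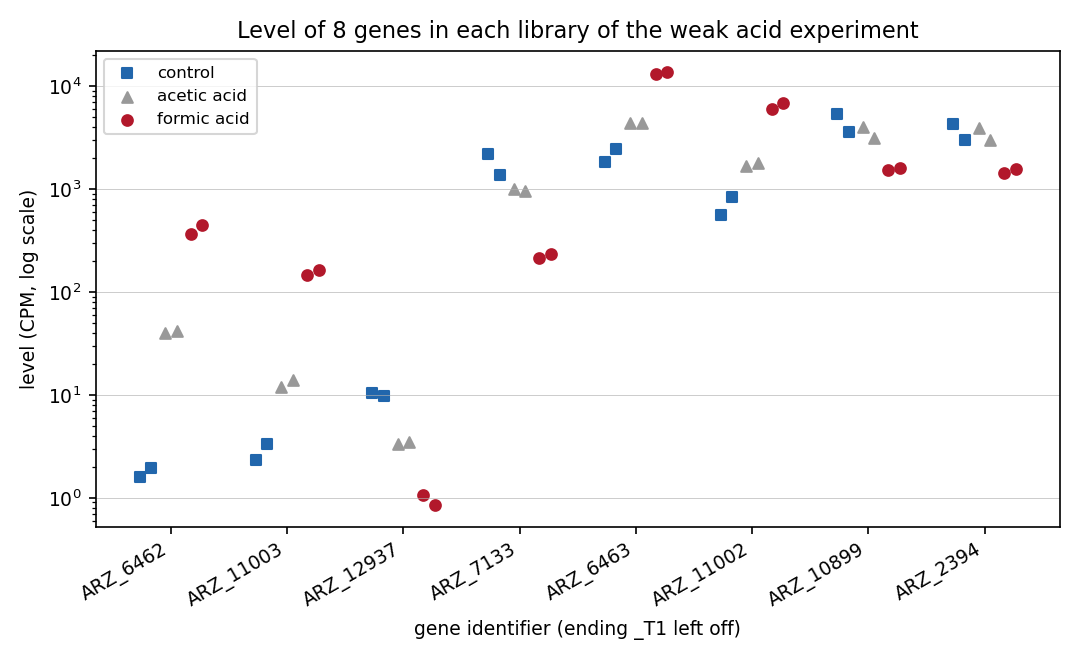
Level in CPM (log scale) of the 8 genes named for formic acid against control, 1 point per library, in the control, acetic acid and formic acid libraries. The formic acid libraries lie above both controls for ARZ_6462, ARZ_11003, ARZ_6463 and ARZ_11002 and below both controls for ARZ_12937, ARZ_7133, ARZ_10899 and ARZ_2394.

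The largest falls were smaller than the largest rises among genes of at least 10 CPM in a group. ARZ_12937_T1 stood at 10.5 and 9.68 CPM in the controls and at 1.07 and 0.853 CPM with formic acid, from 391 reads in the control libraries to 36. The summed reads give a 10.4-fold lower level with an exact 95% interval of 7.39 to 15.1, which covers counting error only. The fitted log2 fold change was −3.37 ± 0.28 (edgeR quasi-likelihood adjusted p = 2.27e-07). ARZ_7133_T1 fell from 2176 and 1378 CPM to 215 and 236 CPM, which the same test gave as −2.98 ± 0.21 on the log2 scale (adjusted p = 2.93e-08). Its control libraries differed from each other more than its formic acid libraries did, and the groups stayed far apart.

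By amount, the largest losses were those of ARZ_10899_T1 and ARZ_2394_T1. ARZ_10899_T1 had 5389 and 3567 CPM in the controls and 1520.4 and 1619 CPM with formic acid, a log2 fold change of −1.51 ± 0.21. ARZ_2394_T1 had 4304 and 3021 CPM in the controls and 1428 and 1571 CPM with formic acid, a log2 fold change of −1.29 ± 0.21. Both showed lower values in every formic acid library than in any control, and in both the control libraries were the more scattered group. Each passed edgeR's quasi-likelihood test (adjusted p = 4.45e-05 and 0.000131). Neither was shown to change by more than 2-fold (glmTreat adjusted p = 0.147 and 0.629).

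**Figure D2:**
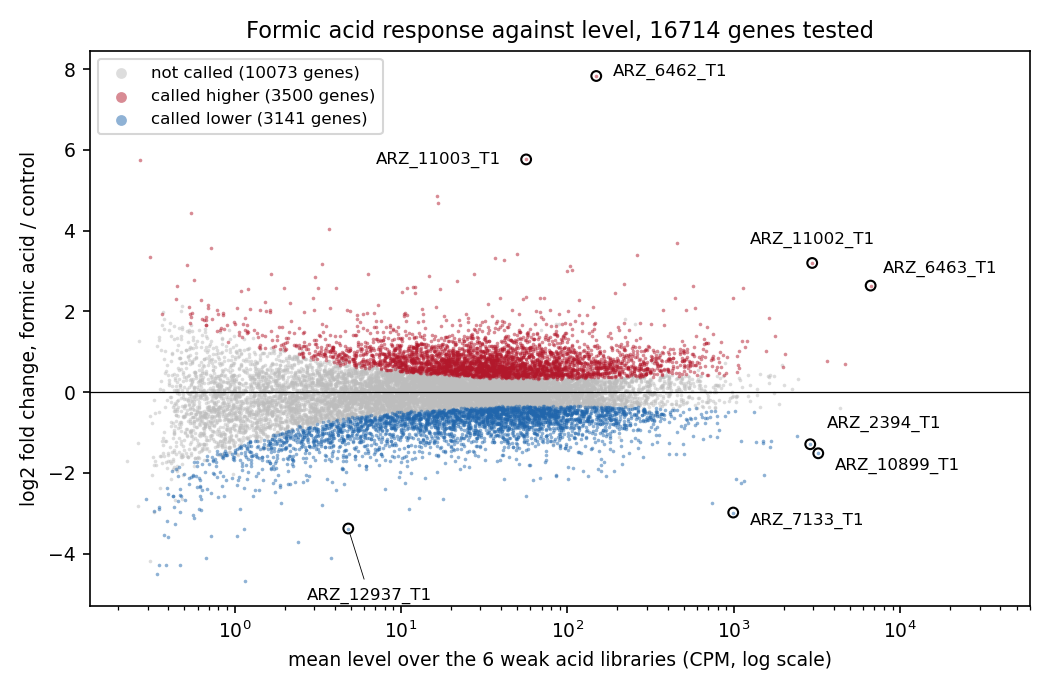
Fitted log2 fold change of formic acid over control (vertical) against the mean level over the 6 weak acid libraries in CPM (horizontal, log scale), 1 point per gene tested, coloured by the call at an adjusted p under 0.05. The 8 named genes are circled; 3500 genes were called higher and 3141 lower, most of them by less than 2-fold.

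Calls grew more frequent with the number of reads behind a gene. They made up 12.2% of the 1031 genes under 1 CPM, 27.6% of the 4460 genes from 1 to 10 CPM, 45.7% of the 8861 genes from 10 to 100 CPM, 52.2% of the 2302 genes from 100 to 1000 CPM and 55.0% of the 60 genes above. The median SE of the log2 fold change was 0.625 in the lowest band and 0.148 from 100 to 1000 CPM. Every called gene under 1 CPM changed at least 2-fold, with a median of 4.18-fold, and the median of the called genes from 1 to 10 CPM was 2.07-fold.

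Among the genes with the most reads, changes of at least 2-fold were frequent. The bands include the formic acid libraries, so a gene could enter or leave a band through its own response. ARZ_11002_T1, with a control mean of 700 CPM, entered the top band with a mean of 2957 CPM over the 6 libraries. ARZ_7133_T1, with a control mean of 1777 CPM, stayed below it at 991 CPM. Bands set on the controls alone were not tested. In the band of at least 1000 CPM, 23 of 60 genes (38.3%) were called and changed at least 2-fold, 10 higher and 13 lower, against 8.86% of the genes from 100 to 1000 CPM and 10.8% of all genes tested. The number was between 20 and 23 in every alternative run. Below 10 CPM more genes fell than rose: 854 fell and 504 rose, and the excess of falls was present without each library in turn (402 and 285 without formic acid replicate 1, 434 and 270 without replicate 2, 552 and 334 without control replicate 1) and with library totals alone (1044 and 435). From 10 CPM upward 2996 rose and 2287 fell, a balance that reversed with library totals alone (2472 and 2855). It was close to even when only genes with at least 10 CPM in 2 libraries were kept (2727 and 2665). Without formic acid replicates 1 and 2 these were 1987 and 1311, and 1990 and 1343.

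**Figure D3:**
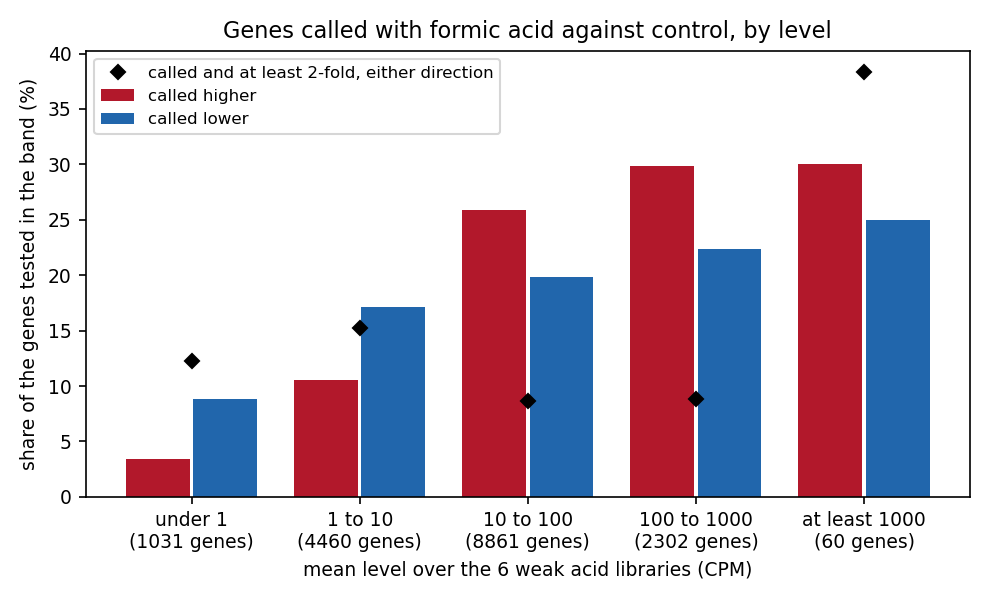
Share of the genes tested in each level band that was called higher (red bars) or lower (blue bars) with formic acid, and share called and changed at least 2-fold in either direction (diamonds). The diamonds lie at 8.68% and 8.86% in the bands from 10 to 1000 CPM and at 38.3% for the 60 genes of at least 1000 CPM; with library totals alone the higher share no longer exceeds the lower from 10 CPM upward.

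The 2 formic acid libraries gave like responses when each was set against a different control library. Formic acid replicate 1 minus control replicate 1 and replicate 2 minus control replicate 2 share no library. Their log2 differences had the same sign for 80.9% of the 16714 genes and for 84.8% of the 11223 genes of at least 10 CPM, with a Pearson correlation across these genes of 0.877, given as a description since genes are not independent. Agreement followed depth, from 63.7% same sign under 1 CPM to 91.7% at 1000 CPM and above. Of the 11223 genes, 53 differed by more than 2-fold between the pairs and 3 by more than 4-fold. Only 1 of the 1704 genes with opposite signs was more than 1.5-fold off in each direction. For 8417 genes of at least 10 CPM (75.0%) the 95% interval of the fitted change lay within 2-fold either way, and for 304 it lay wholly beyond 2-fold. These intervals are per gene and not adjusted for the number of genes. With that adjustment, glmTreat called 113 of the 11223 genes higher and 62 lower beyond 2-fold.

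**Figure D4:**
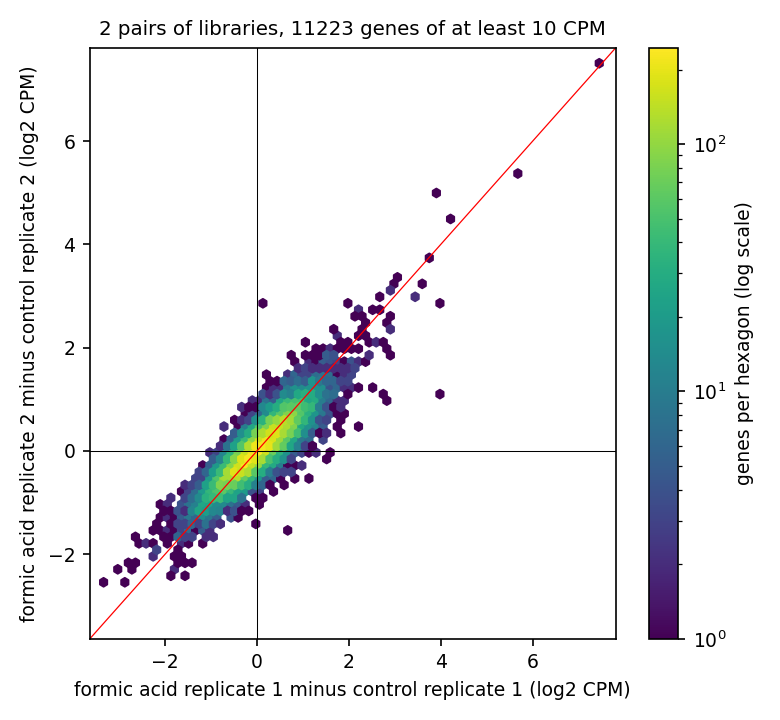
Log2 CPM difference (with 0.5 CPM added) between formic acid and control in the replicate 1 libraries (horizontal) and the replicate 2 libraries (vertical) for the 11223 genes of at least 10 CPM; colour gives the number of genes and the red line equality. The cloud follows the line of equality, and 84.8% of the genes have the same sign in both pairs.

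No gene switched from undetected to abundant. Of all 18830 identifiers, 130 had no read in either control library and at least 1 with formic acid, and the most reads any of them had over both formic acid libraries was 14. In the other direction 271 identifiers had reads in the controls and none with formic acid, with at most 15 reads over both controls. Set against the upper limit of 3 counts that a count of 0 allows over a group, these extremes are at least 4.87-fold higher and at least 4.79-fold lower. Only the counting error of the 0 is covered, since the 14 and 15 reads are taken as exact. At this depth the large rises above were therefore of genes that already had reads without the acid, 69 in all for ARZ_6462_T1 and 110 for ARZ_11003_T1.

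Acetic acid was the other acid of the experiment, at 2.0 g/L where formic acid was at 4.0 g/L, so compound and dose cannot be told apart. The formic and acetic acid libraries differed at 4198 genes (25.1%), 2224 (13.3%) higher and 1974 (11.8%) lower with formic acid. This count was 2064 and 1629 without formic acid replicates 1 and 2 and 2460 without acetic acid replicate 2, and with library totals alone the split was 1793 higher and 2558 lower. Against the shared control, acetic acid changed 6341 genes (37.9%), raising 19.7% and lowering 18.3% of those tested. Every one of the 8 genes above was further from the control with formic acid than with acetic acid. ARZ_6462_T1 reached 39.6 and 41.6 CPM and ARZ_11003_T1 11.8 and 13.9 CPM with acetic acid, below their formic acid levels by log2 differences of 3.32 ± 0.16 and 3.58 ± 0.17. ARZ_6463_T1 and ARZ_11002_T1 were higher with formic than with acetic acid by 1.62 ± 0.20 and 1.88 ± 0.21. For ARZ_10899_T1 and ARZ_2394_T1 the formic acid level was the lower one, by −1.20 ± 0.21 and −1.21 ± 0.21, and with acetic acid their log2 fold changes over the control were −0.31 and −0.08 (edgeR quasi-likelihood adjusted p = 0.253 and 0.795). Adjusted p-values of the 8 differences between the acids ran from 1.85e-10 to 0.000626 in the edgeR quasi-likelihood test. The 8 genes were chosen as extremes of formic acid against control, on the same formic acid libraries. That choice favours a larger distance with formic acid, and the p-values do not allow for it.

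The genes of the largest fold difference between the acids were not those of the largest fold change with formic acid. ARZ_10440_T1 had 35.8 and 63.6 CPM in the controls, 128 and 87.2 CPM with formic acid and 0.179 and 0.220 CPM with acetic acid. ARZ_16712_T1 had 83.8 and 119 CPM, 351 and 320.0 CPM, and 2.15 and 1.37 CPM in the same order. Both rose with formic acid (log2 fold changes 1.11 and 1.72) and fell with acetic acid (−7.91 and −5.85). ARZ_15897_T1 was higher with acetic acid, at 282 and 251 CPM against 29.2 and 27.2 CPM with formic acid, where it was close to its control values of 27.0 and 23.4 CPM (log2 fold change 0.16, 95% interval −0.15 to 0.47). ARZ_1634_T1 had 10.3 and 11.04 CPM with acetic acid, 1.48 and 0.739 CPM with formic acid and 3.12 and 1.71 CPM in the controls. The log2 differences of formic minus acetic acid were 9.02 ± 0.46, 7.58 ± 0.25, −3.24 ± 0.15 and −3.24 ± 0.34 for these 4 genes, and their adjusted p-values ran from 1.55e-12 to 3.53e-06 (edgeR's quasi-likelihood test). ARZ_10440_T1 had only 3 and 4 reads with acetic acid, which gives a ratio of 543 with an exact 95% counting interval of 263 to 1352.

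The other experiments share no library with formic acid or its control, so their fold changes were set beside those of formic acid. The share of genes called in either direction was 34.3% for furfural, 8.45% for HMF, 19.2% for vanillin, 8.11% for 4-hydroxybenzaldehyde and 24.1% for syringaldehyde. The experiments were fitted separately, and differences between inhibitors of separate experiments were not tested. Doses differed as well (1 g/L for the furans and 0.1 g/L for the phenolic aldehydes), so compound and dose cannot be told apart. ARZ_6463_T1 and ARZ_11002_T1 rose with furfural as well (log2 fold changes 1.01 ± 0.15 and 1.44 ± 0.15, edgeR quasi-likelihood adjusted p = 1.72e-05 and 1.36e-07). ARZ_6463_T1 also rose with HMF (0.57 ± 0.15, adjusted p = 0.0205 by that test), and ARZ_11002_T1 fell with syringaldehyde (−0.66 ± 0.17, adjusted p = 0.0161). ARZ_6462_T1 rose from 1.05 to 1.17 CPM in the furan controls to 4.08 to 4.14 CPM with furfural (1.88 ± 0.45, adjusted p = 0.00237 by the same test). ARZ_11003_T1 passed in none of the other 5 comparisons and had 0.899 to 4.14 CPM in all of their inhibitor libraries. ARZ_12937_T1, which fell with formic acid, rose with HMF (3.18 ± 0.25), vanillin (1.38 ± 0.36) and furfural (0.91 ± 0.27), where edgeR's quasi-likelihood test gave adjusted p-values of 4.84e-09, 0.0185 and 0.0110. ARZ_7133_T1 also fell with 4-hydroxybenzaldehyde (−1.34 ± 0.25) and vanillin (−0.80 ± 0.24), with adjusted p-values of 0.00764 and 0.0369 by that test. ARZ_10899_T1 and ARZ_2394_T1 passed in none of these 5 comparisons. ARZ_10440_T1 and ARZ_16712_T1, raised by formic acid, fell in all 5, by log2 fold changes of −8.84 to −1.70 and −5.95 to −1.60. Since the first 8 genes were chosen for their formic acid response, that it is the furthest from 0 for them is part of the choice.

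**Figure D5:**
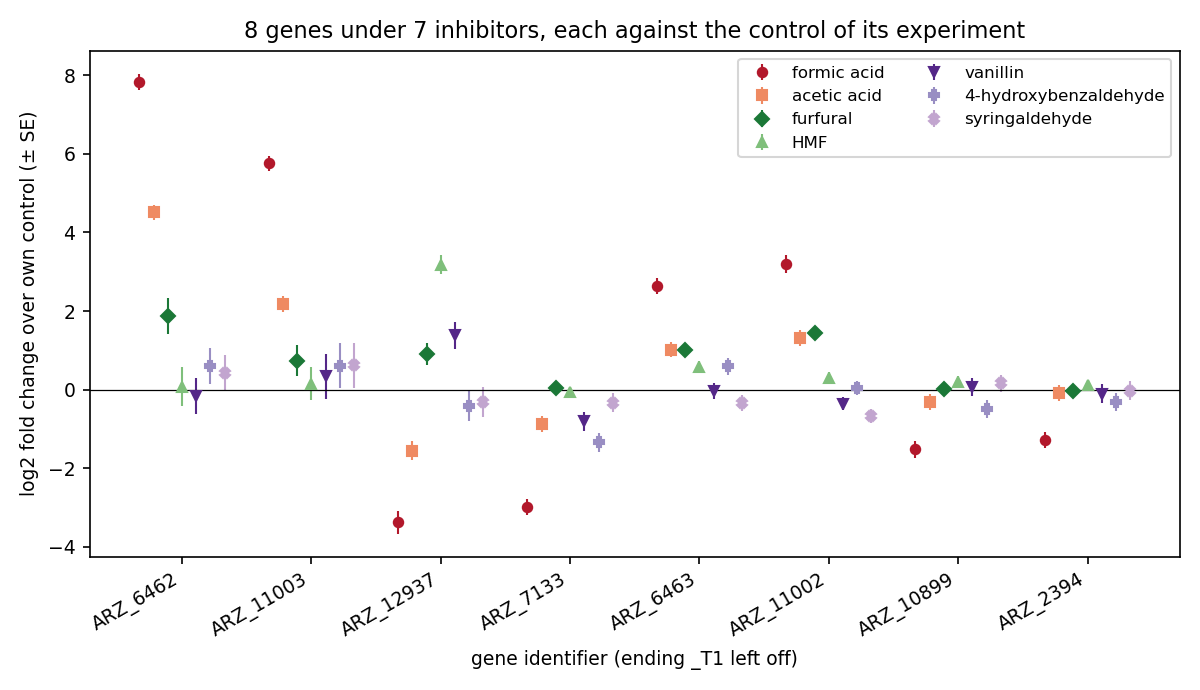
Log2 fold change with SE of the 8 named genes under each of the 7 inhibitors, each against the control of its own experiment (2 libraries per group). Formic acid gives the value furthest from 0 for every gene; ARZ_12937 is below 0 with formic and acetic acid and above 0 with HMF, vanillin and furfural.

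Over all genes, more of those raised by formic acid were called lower than higher with each of the 3 phenolic aldehydes, while the calls with furfural had no stable order. Of 3460 genes higher with formic acid that were also tested for furfural, 737 (21.3%) were higher with furfural and 882 (25.5%) lower, an order that turned without control replicate 2 (782 higher and 735 lower). Without formic acid replicate 1 the numbers were 518 and 582. Furfural raised 17.4% and lowered 17.0% of all genes tested in both experiments. The shared rises were 26.1% of the furfural rises, and the 882 were 31.9% of its falls. Of 3492 genes higher with formic acid and tested for the phenolic aldehydes, 817 (23.4%) were lower with syringaldehyde and 285 (8.16%) higher, where 13.2% and 10.9% of all genes were so called. With vanillin 731 (20.9%) were lower and 232 (6.64%) higher, against 10.4% and 8.83% of all genes. With 4-hydroxybenzaldehyde 335 (9.59%) were lower and 98 (2.81%) higher, against 5.0% and 3.11%. The opposite calls were 35.7%, 40.4% and 38.6% of the genes lowered by syringaldehyde, vanillin and 4-hydroxybenzaldehyde. Opposite calls outnumbered same-direction calls for each of the 3 in every alternative run, and without formic acid replicate 2 they were 623 to 162, 558 to 149 and 249 to 67. Without formic acid replicate 1, 51 genes rose with both formic acid and 4-hydroxybenzaldehyde, and without control replicate 1 the number was 65. Of the 3460 genes tested for HMF, 176 (5.09%) were lower and 125 (3.61%) higher with it, where HMF lowered 3.45% and raised 5.0% of all genes. Without formic acid replicate 1 these were 130 and 77.

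Of the genes that fell with formic acid, more were higher than lower with HMF and with vanillin. With HMF 257 of 3103 (8.28%) were higher and 115 (3.71%) lower, and the 257 were 31.5% of the HMF rises. Without formic acid replicates 1 and 2 these numbers were 174 and 70, and 177 and 79. Of all genes tested in both experiments, HMF raised 5.02% and lowered 3.46%. The order with HMF was thus also that of all genes, and the share higher exceeded theirs. With vanillin 343 of 3135 (10.9%) were higher and 247 (7.88%) lower. Without formic acid replicates 1 and 2 the numbers were 191 and 148, and 213 and 134. All genes tested in both experiments had the opposite order with vanillin, 8.94% higher and 10.9% lower. With 4-hydroxybenzaldehyde 112 (3.57%) were higher and 173 (5.52%) lower, or 66 and 104, and 60 and 113, without the same libraries. These shares were close to those of all genes tested in both experiments, 3.20% and 5.22%. Nothing particular to the genes that fell is therefore read from this order. The calls with syringaldehyde and furfural had no clear order. With syringaldehyde 397 (12.7%) were higher and 374 (11.9%) lower, and these became 206 and 225 without formic acid replicate 1 and 238 and 215 without replicate 2. With furfural 517 (16.7%) were higher and 483 (15.6%) lower, and these became 302 and 275, and 329 and 295. Of all genes tested in both experiments, syringaldehyde raised 11.1% and lowered 13.8%, and furfural raised 17.4% and lowered 17.0%.

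The correlation of log2 fold changes across genes of at least 10 CPM was −0.01 for furfural and −0.13 for HMF over 10702 genes, and −0.17, −0.11 and −0.15 for vanillin, 4-hydroxybenzaldehyde and syringaldehyde over 10883. These are descriptions over genes whose levels and depth are shared between experiments. Calls with formic acid were more frequent among genes with more reads, as given above, and the part of read depth in these shares was not tested. The genes shown to change by more than 2-fold were also counted alone. Of 89 lower with formic acid, 17 (19.1%) rose and 25 (28.1%) fell with furfural. Of 91 lower with formic acid, 14 (15.4%) rose and 18 (19.8%) fell with vanillin. With syringaldehyde 14 of the 91 rose and 19 fell, and with 4-hydroxybenzaldehyde 4 rose and 11 fell. With HMF 15 of the 89 rose and 8 fell. For all of these but furfural the order was that of all genes, given below. The share that rose with furfural was close to the 17.4% of all genes. These counts of falls were not repeated in the alternative runs, so nothing is read from their order. Of 131 higher with formic acid and tested for both, 49 (37.4%) rose with furfural and 21 (16%) fell (all genes: 17.4% and 17.0%). These were 41 and 12 without formic acid replicate 1, 34 and 11 without replicate 2, 33 and 12 without control replicate 1 and 36 and 12 by DESeq2. Of 132 such genes tested for the phenolic aldehydes, 21 (15.9%) rose and 23 (17.4%) fell with vanillin, which are close in number. Of all genes tested in both experiments, 8.94% rose and 10.9% fell with vanillin. For syringaldehyde these shares were 11.1% and 13.8%, for 4-hydroxybenzaldehyde 3.20% and 5.22%, and for HMF 5.02% and 3.46%. The vanillin values depended on the control library: they were 16 and 10 if control replicate 1 was left out, but 22 and 36 if it was control replicate 2. They were 17 and 11, and 14 and 14, without formic acid replicates 1 and 2. With syringaldehyde 20 (15.2%) rose and 31 (23.5%) fell, giving 16 and 16 once control replicate 1 was dropped. For control replicate 2 dropped they were 20 and 58, and for formic acid replicate 2 they were 14 and 19. With 4-hydroxybenzaldehyde 2 (1.52%) rose and 20 (15.2%) fell, which became 3 and 10 if control replicate 1 was left out, and 1 and 10 if formic acid replicate 2 was. With HMF 12 of the 131 rose and 10 fell, or 9 and 6 with control replicate 1 dropped, 13 and 17 with control replicate 2 dropped, and 8 and 7 with formic acid replicate 2 dropped.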

How the data were processed

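The authors deposited raw read counts for 18830 identifiers in 3 tables, 1 per experiment, with 1 column per library. Per the labels' protocols, RNA was extracted with Trizol and an Ion Proton kit for RNA-Seq was used to make the libraries. The read aligner is not given in the sources used here, nor is the counter. Sscrofa 10.2, a pig genome, is the only build listed by the submitters' processing notes and is at odds with the fungal identifiers.

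The weak acid table was fitted with its 6 libraries in edgeR 4.0.16 (R 4.3.3): filterByExpr (16714 genes kept; the rest held 0.0246% of counts), TMM factors of 0.955 to 1.03, robust quasi-likelihood F-tests, two-sided, Benjamini-Hochberg over all genes tested, and a call at an adjusted p under 0.05. glmTreat tested changes beyond 2-fold. Level bands use the mean CPM over the 6 libraries. The furan and phenolic aldehyde tables were fitted the same way (16398 and 17495 genes). SEs come from the F statistics. The tests were checked on simulated counts drawn with a spread common to all genes, so the check does not cover the gene-by-gene spread of these data.

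To be named, a called gene had to change 2-fold or more, reach a mean of 10 CPM in one of the groups and have no overlap between the groups. The 2 largest each way were taken by fold and by CPM difference against the control, and by fold against acetic acid. The members and lists were chosen with earlier results of these data known. Alternatives were median-of-ratios scaling, library totals alone, no filter, a filter at 10 CPM in 2 libraries, only the 2 groups compared, a replicate block, each library left out in turn, and DESeq2 1.42.0. Figures were drawn with matplotlib 3.10.9. The RefSeq table was used only to look for matching identifiers.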

Additional observations from a re-analysis of the deposited data

How the results depend on the processing

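The 12 named differences kept their direction and their call in each alternative that could give a value; ARZ_12937_T1 had none under the filter at 10 CPM in 2 libraries. The largest adjusted p among them was 0.0129, for ARZ_2394_T1 without formic acid replicate 1. Leaving out 1 library, where the single remaining library takes its spread from the other groups, gave 3985 to 6021 genes changed by formic acid (2260 to 3199 higher and 1713 to 2822 lower), 122 to 276 beyond 2-fold (80 to 166 higher and 42 to 110 lower), and 1629 to 2882 that differed from acetic acid (945 to 1519 higher and 684 to 1363 lower). DESeq2 gave 136 genes beyond 2-fold, 87 higher and 49 lower, and 5988 changed genes, 5917 of them called by edgeR. The added setting of library totals alone, chosen after seeing the data, turned the excess of rises into one of falls, as given above. With the replicate number as a replicate block, 6769 genes were called against the control, 237 beyond 2-fold and 4336 against acetic acid, and no call of a named gene changed. Same-numbered libraries deviated together weakly (correlations of 0.171 for formic acid with control and 0.00655 for formic with acetic acid), and with 2 numbers the libraries share only a number. Depth limits the genes under 1 CPM, where the median SE was 0.625 on the log2 scale.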

Other observations

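The 2 leading pairs were cases of a wider pattern among consecutive identifiers. Of 15274 pairs of tested genes whose numbers differ by 1, 218 had both members called and changed at least 2-fold with formic acid. In 163 of these pairs both moved the same way, 75 with both higher and 88 with both lower, and in 55 they moved in opposite directions. Genes 2 numbers apart gave 102 pairs in the same direction and 64 opposite, and genes 7 apart gave 116 and 73. Genes 5 apart gave 100 and 79, and genes 6 apart gave 100 and 81. At the other distances from 3 to 10, same-direction pairs numbered 74 to 97 and opposite pairs 75 to 91. Genes 20 apart gave 85 and 88, genes 50 apart 87 and 96, and genes 100 apart 94 and 89. Same-direction pairs were thus the more numerous at most distances from 1 to 10, by the widest margin at 1 among the distances counted. Same-direction pairs outnumbered opposite pairs at a distance of 1 in every alternative run, 114 to 33 without control replicate 1, 123 to 38 without formic acid replicate 2, 195 to 82 without control replicate 2 and 59 to 14 under the filter at 10 CPM in 2 libraries. This count was made after the leading pairs had been seen, and it is given as a description with no test. Overlapping gene models and reads shared between neighbours were not tested as a part of it.

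The genes that rose at least 2-fold with formic acid, 855 in all, took 10.6% and 11% of the counts of the formic acid libraries, 3.60% and 4.23% in the controls and 6.91% and 7.5% with acetic acid. The 946 that fell at least 2-fold took 2.84% and 2.95% with formic acid, 8.63% and 7.46% in the controls and 5.62% and 4.77% with acetic acid. Both lists were chosen on the formic acid and control libraries, so any further group can fall between the extremes through that choice alone, and nothing is read from the order of the shares.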
